A study of Mus musculus with 12 samples.

Results

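Ion channels and neurotransmitter receptors were examined among the genes that the study lists as different between tdTomato- and tdTomato+ ILC2s. Members were the rows of the 2 deposited tables whose gene symbol belongs to the voltage-gated sodium, calcium or potassium channels, the ryanodine and inositol trisphosphate receptors, the Trp, Hcn, Clcn, anoctamin, Piezo, Orai and Stim families, or the glutamate, GABA, glycine, acetylcholine and serotonin receptors. The pattern found 51 members among 3439 listed genes, 35 in the table of genes higher in tdTomato+ ILC2s and 16 in the table of lower genes. Of all listed genes, 15.5% stand in the table of higher genes. All 51 members were typed as protein coding.

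The ILC2s, group-2 innate lymphoid cells, were sorted from lungs of male mice of the genotype TIGIT-Cre-ERT2:Rosa26-LSL-tdTomato. In these mice, tamoxifen lets the Cre recombinase made from the *Tigit* locus switch on the red protein tdTomato for good, so tdTomato+ cells have expressed TIGIT, an inhibitory receptor, at some time. Both populations came from mice given nasal papain, a protease allergen, and tamoxifen, and no library of untreated mice was used here. The labels give 4 RNA-seq libraries of tdTomato- ILC2s and 4 of tdTomato+ ILC2s. Being in a table is the authors' call and is what chose the members, so the direction of a member is a description here and was not tested. The only measured value used was the authors' average log2 CPM (CPM, read counts scaled to the library size, on a log2 scale), which pools the libraries of both populations. It says how abundant a transcript was over both populations together and not how far they differed, and the spread between replicates and the depth of each library are unknown.

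Ion channels are membrane proteins that let selected ions pass. Neurons and muscle use voltage-gated sodium, calcium and potassium channels to fire action potentials, and ligand-gated receptors for glutamate, GABA or glycine to pass signals at synapses. Lymphocytes do not fire action potentials, but depend on calcium. Receptor signaling makes inositol trisphosphate, its receptors release calcium from the endoplasmic reticulum, the sensors Stim1 and Stim2 detect the emptied store, and Orai channels open in the plasma membrane. Potassium channels such as those encoded by *Kcna3* and *Kcnn4* hold the membrane potential that drives this calcium entry, and calcineurin and NFAT act downstream.

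Cell type markers were looked up, first 12 genes taken as ILC2 markers, among them *Gata3*, *Il1rl1*, *Il7r* and *Rora*. All 12 were listed, all as lower in tdTomato+ ILC2s, beside 13.2% of all protein-coding genes. Their average levels ran from 29.8 to 177 CPM per kb of exon. *Ptprc*, *Il7r*, *Il2ra* and *Il1rl1* encode proteins of the paper's ILC2 gate, and the levels pool both populations. The list is therefore no independent check of what the tdTomato+ cells are. Of 15 markers of neurons or neuroendocrine cells, 13 were not listed. *Map2*, a microtubule-associated protein of dendrites, was listed as higher with 4.30 CPM per kb, and *Calca*, a neuropeptide gene, as lower with 60.6 CPM per kb. None of 8 muscle, 5 epithelial and 5 macrophage markers was listed, and of 8 T or B cell markers *Cd3g* was listed, as lower. No listed gene had an average log2 CPM under 5, which was taken as a lower limit of the tables although no source used here states one, so an unlisted marker may still have been present. The part of other cells in the results below was not tested.

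The pattern matches 280 protein-coding genes of the mouse annotation (GENCODE M21, GRCm38). Of these, 12.5% were listed as higher and 5.71% as lower. Over all 21951 annotated protein-coding genes, 2.31% were listed as higher and 13.2% as lower. The counts differed between families. Of 10 sodium channel alpha subunits, which form the pore, 7 were listed as higher and 0 as lower, whereas none of the 4 beta subunits was listed. Of 19 GABA-A receptor genes 5 were listed as higher, of 94 potassium channel genes 9 as higher and 3 as lower, and of 24 Trp genes 4 as higher and 3 as lower. All 3 inositol trisphosphate receptor genes and both Stim genes were listed as lower, as was 1 of 3 Orai genes. No gene of the 21 acetylcholine receptors, 14 serotonin receptors, 9 Clcn chloride channels, 10 pore subunits of voltage-gated calcium channels or 3 ryanodine receptors was listed in either table. All 13 X-linked genes of the pattern were unlisted too. Of the 948 X-linked protein-coding genes, 1 was listed as higher and 102 as lower.

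Channels with known roles in lymphocytes were compared with neuronal or muscle channels. The lymphocyte class held 21 genes, of which 12 were listed as lower, 0 as higher and 9 were not listed (*Orai1*, *Orai3*, *Trpm2*, *Trpm4*, *Kcnk5*, *Clcn3*, *Clcn7*, *Ano6* and *Chrna7*). The neuronal or muscle class held 226 annotated genes, of which 28 (12.4%) were listed as higher and 2 (0.885%) as lower. The other 9 members were in neither class, because their symbols fall outside both definitions. This holds whatever cells express them, as for *Trpm1*, *Trpm8* and *Cacnb2*. Without *Trpm7* and the Itpr and Stim genes, which most tissues express, 6 lymphocyte channels were listed as lower. With an average log2 CPM over 6, 3 neuronal or muscle channels were listed as higher and 2 as lower. Both classes were drawn up with earlier results of these data known, the lymphocyte class from general knowledge of these channels. The neuronal or muscle class took, by symbol, all other potassium channel genes and whole families such as Scn, Gabr, Chrn and Htr. Expression of the single genes was not looked up, so it may hold genes of other tissues. The division between the tables is therefore a description.

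The lymphocyte channels listed as lower included the whole release step of store-operated calcium entry. *Itpr2* had the highest average level of all 51 members, with a log2 CPM of 8.62, or 392 CPM. *Itpr1* had 171 CPM and *Itpr3* 127 CPM. These genes encode large tetrameric calcium release channels, and *Itpr1* has the longest coding sequence of all members (8247 bases). *Itpr2* lies at chr6:146108299-146502223 (GRCm38, minus strand), *Itpr1* at chr6:108213096-108551109 (plus strand) and *Itpr3* at chr17:27057304-27122223 (plus strand). Exonic lengths differ between genes, so levels were compared per kb of exon. On this scale *Itpr2* had 26.5 CPM per kb, *Itpr3* 14.1 and *Itpr1* 9.36, so that the order of *Itpr1* and *Itpr3* turned. Scaled to the longest transcript or the coding sequence, *Itpr1* stayed above *Itpr3*. Of the store sensors, *Stim1* had 106 CPM and *Stim2* 72.1 CPM. Per kb of exon *Stim2* (14.0) lay above *Stim1* (10.2), but not when scaled to the longest transcript or the coding sequence. *Orai2*, a pore subunit with 264 residues and the shortest protein of the members, had 64.6 CPM, or 10.6 CPM per kb. *Orai1* and *Orai3*, the other pore subunits, were not listed, so neither their level nor their direction is known from the tables.

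Of the potassium channels of lymphocytes, *Kcna3*, the voltage-gated channel of T cells, had 50.8 CPM and *Kcnn4*, the calcium-activated potassium channel, 41.8 CPM. *Kcna3* is annotated with 1902 exonic bases and therefore had the highest level per kb of exon of all members, 26.7 CPM, against 8.17 for *Kcnn4*. *Itpr2* lay close below with 26.5, and above *Kcna3* when scaled to the longest transcript or the coding sequence. *Kcnab2*, a cytoplasmic beta subunit, had 89.7 CPM (16.1 per kb), while its relative *Kcnab1* was the member with the shortest protein (401 residues) among those listed as higher, with 39.7 CPM (4.62 per kb). Other cation channels made up the rest of the class genes that were listed as lower. *Trpm7*, which carries a kinase domain and passes magnesium and calcium, had 139 CPM (12.3 per kb), *Trpv2* 53.7 CPM (11.97 per kb) and the mechanically gated *Piezo1* 79.9 CPM (8.05 per kb). For *Piezo1*, 24.6% of the exonic bases lie opposite exons of a gene on the other strand. The paper names a stranded library kit, but whether the counting used strand is not stated, so its reads may not all be its own.

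Outside the lymphocyte class, 4 members were listed as lower. *Grin2d*, an NMDA glutamate receptor subunit, had 77.9 CPM (11.7 per kb), and 9.66% of its exonic bases lie opposite exons of another gene. *Gabbr1*, a subunit of the metabotropic GABA-B receptor, had 81.9 CPM (10.6 per kb). Their levels per kb lay within the range of the lymphocyte channels (8.05 to 26.7). *Grin2d* is therefore an NMDA receptor gene listed as lower, while *Grin2b* and *Grin3a* were listed as higher. *Grina* (37.99 CPM, 18.4 per kb) and *Trpc4ap* (72.6 CPM, 8.29 per kb) match the pattern by symbol but encode proteins that are not channel subunits.

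Of the 35 members listed as higher, 28 were of the neuronal or muscle class. The sodium channel alpha subunits had average levels from 40.5 to 60.8 CPM. *Scn2a* and *Scn8a*, the channels of axon initial segments, both had 60.8 CPM, *Scn9a* and *Scn11a*, known from pain-sensing neurons, had 59.2 and 40.5 CPM, and *Scn1a*, *Scn3a* and *Scn7a* had 51.7, 50.7 and 43.9 CPM. Per kb the 7 genes had from 3.85 (*Scn8a*) to 6.84 CPM (*Scn11a*). In GRCm38, *Scn3a*, *Scn2a*, *Scn1a*, *Scn9a* and *Scn7a* follow each other within 1.33 Mb of chromosome 2, from 65457118 to 66784914, so they are neighbours as well as paralogs. Of the 50-base windows of the longest transcript, 8.53% in *Scn3a*, 7.87% in *Scn2a*, 5.48% in *Scn1a* and 5.36% in *Scn9a* occur unchanged in a transcript of another gene. No other member had over 5%, and 46 of 51 members had under 1%. Reads in such windows can be divided between paralogs, so the values of these 4 genes are less certain than those of the others.

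The 10 members with the highest average CPM in the table of higher genes included *Scn2a*, *Scn8a* and *Scn9a*. Of the others, *Trpm3*, a heat-gated cation channel, had 95.6 CPM, followed by *Kcnma1*, the large-conductance calcium-activated potassium channel, with 87.7 CPM. The glutamate receptor subunits *Grin2b* and *Grik2* had 80.8 and 79.2 CPM. *Kcnh7*, of the ether-a-go-go family, had 61.8 CPM, and *Trpm6*, a magnesium channel of epithelia with the longest coding sequence of the 35 members listed as higher, 58.0 CPM. Per kb, these genes lay on both sides of the median of the members listed as higher (4.53). *Grin2b* had 3.25, *Trpm3* 3.91, *Kcnh7* 4.06, *Kcnma1* 5.17, *Grik2* 5.98 and *Trpm6* 7.52 CPM per kb. The exons of *Grin2b* cover 24.8 kb, the longest of all members.

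The synaptic receptors came from several families. The GABA-A subunit genes *Gabra2*, *Gabra4*, *Gabrb1* and *Gabrg3* had average log2 CPM from 5.14 to 5.80. *Gabra2*, *Gabra4* and *Gabrb1* are neighbours on chromosome 5 within a cluster of 4 GABA-A genes, in which *Gabrg1* was not listed. *Glra3*, a glycine receptor subunit, had 5.15, and the metabotropic glutamate receptors *Grm5* and *Grm7* had 5.29 and 5.36. Further potassium channels were *Kcnq3*, a subunit of the neuronal M-current channel, *Kcnb2* (voltage-gated), *Kcnt2* (sodium-activated), *Kcnk9* (a leak channel) and *Kcnj6* (an inward rectifier opened by G proteins). Their average log2 CPM was 5.82, 5.57, 5.39, 5.13 and 5.11. *Kcnj6* lay nearest to this limit of 5 among the members listed as higher and *Grina*, with 5.25, among those listed as lower. Also listed as higher were *Cacnb2*, an accessory calcium channel subunit (5.64), *Trpm1*, of retinal bipolar cells (5.50), the cold sensor *Trpm8* (5.58), and the anoctamins *Ano3* and *Ano5* (5.71 and 5.67).

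**Figure D1:**
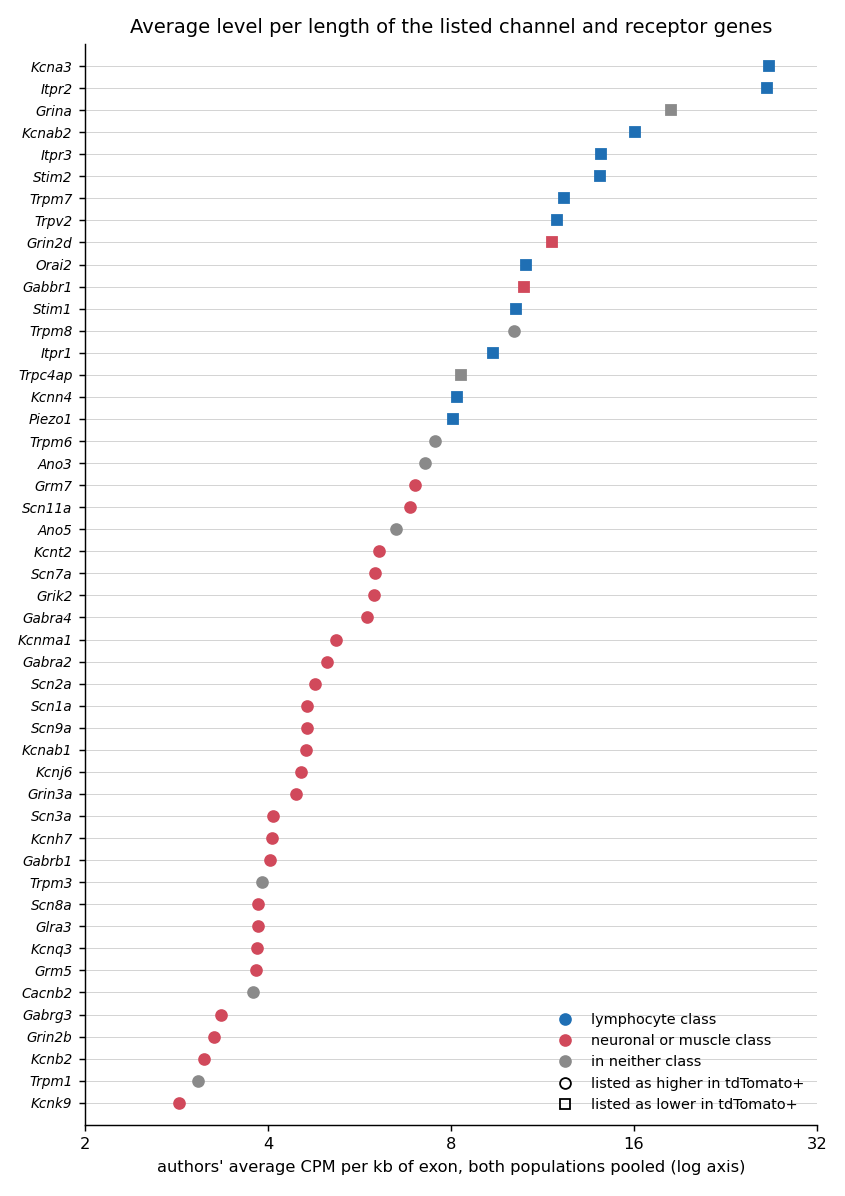
Authors' average CPM per kb of exon of 48 members on a log axis, each point 1 gene, with squares for genes listed as lower and circles for genes listed as higher in tdTomato+ ILC2s. The 12 listed genes of the lymphocyte class lie at 8.05 CPM per kb or above, and *Trpm8* (10.1) is the gene listed as higher that lies among those listed as lower.

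The tables differed in average level per length. The 35 members listed as higher had a median of 4.53 CPM per kb (at most 10.1, in *Trpm8*), and the 16 listed as lower had a median of 11.8 (from 8.05 in *Piezo1* to 26.7 in *Kcna3*). Of the 35, 34 lay under the lowest member of the other table. Among the listed genes that are no members, the medians were 4.54 CPM per kb for higher and 15.4 for lower genes. Under 8.05 lay 457 of 496 of these higher genes and 183 of 2889 of these lower genes, so the 2 groups overlapped. The lower members therefore had a median below that of the other genes listed as lower, while the higher members matched the other genes listed as higher. Without a length scale the gap was smaller, with medians of 50.01 CPM for higher and 78.9 CPM for lower members.

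The apparent lower limit of the tables takes part in these values. An average log2 CPM of 5 is 32 CPM, so a gene with long exons could enter the tables at a lower level per kb than a short gene. The comparison was therefore repeated within bins of exonic length. Among members with 4 to 8 kb of exon, the 12 listed as higher had a median of 6.29 CPM per kb and the 7 listed as lower 11.7. *Trpm8*, with 10.1, was the one that crossed into the range of the lower members, whose lowest was *Kcnn4*. With 8 to 12 kb, the 5 higher members had 3.35 to 4.64 CPM per kb and the 5 lower members 8.05 to 14.1, without overlap. The other listed genes of this length had medians of 4.38 (176 higher) and 11.95 CPM per kb (471 lower). With 12 to 16 kb, 13 higher members had at most 5.98 CPM per kb and the only lower member, *Itpr2*, had 26.5. Genes are not replicates, and no test was made.

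**Figure D2:**
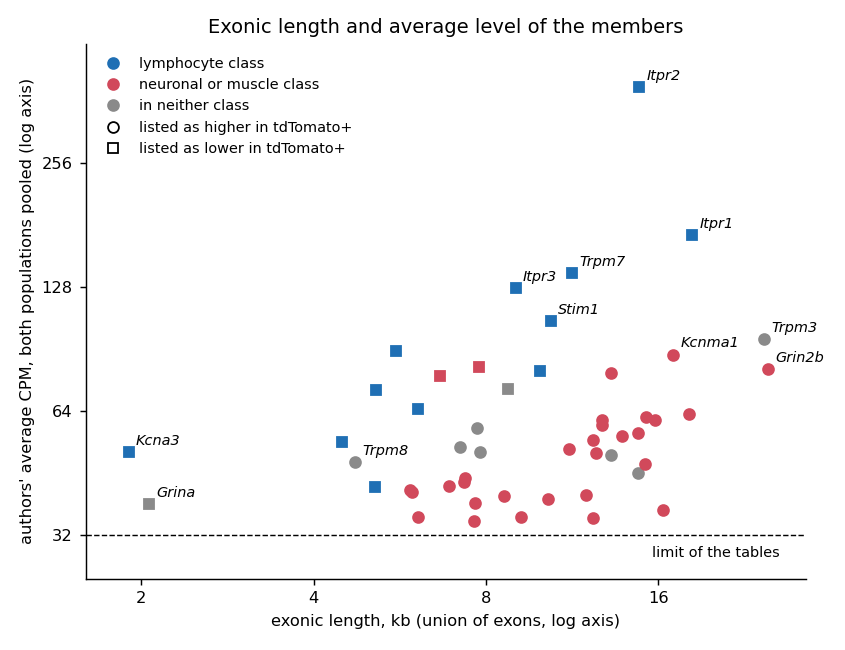
Exonic length (union of all annotated exons, kb) against the authors' average CPM, both on log axes, for the 51 members, with the limit of 32 CPM as a dashed line. Members listed as higher (circles) crowd just over the limit and at long exons, whereas those listed as lower (squares) reach 392 CPM.

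Length set the members apart as well. Members listed as higher had a median exonic length of 12.3 kb (quartiles 7.64 and 14.7), and those listed as lower had 7.21 kb (quartiles 5.13 and 10.04). Members of the pattern that were not listed had 4.59 kb, and all protein-coding genes 3.50 kb. More than 10 kb of exon was found in 21 of 35 higher and 4 of 16 lower members. The other listed genes showed the same order, with medians of 10.4 kb for higher and 5.19 kb for lower genes. The coding sequences differed less, with medians of 2943 bases in higher and 2385 bases in lower members, and the longest were in *Itpr1*, *Itpr2*, *Itpr3* and *Piezo1* (7641 to 8247 bases), all listed as lower.

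By exonic length, the share of annotated channel and receptor genes listed as higher was 0 of 95 under 4 kb, 10.5% of 114 from 4 to 8 kb, 13.2% of 38 from 8 to 12 kb, 68.4% of 19 from 12 to 16 kb and 35.7% of 14 over 16 kb. The last 2 bins hold under 20 genes each. For other protein-coding genes the shares were 0.146%, 1.39%, 9.04%, 20.8% and 23.5%. Not every channel gene with long exons was listed as higher. *Ryr1*, *Ryr2*, *Ryr3*, *Cacna1c*, *Cacna1d*, *Cacna1e*, *Grin2a*, *Gria2* and *Piezo2*, each with over 12 kb of exon, were not listed, and *Itpr1* and *Itpr2* were listed as lower. As a share of genes listed as lower, the pattern lay under the other protein-coding genes in all 5 bins, for example with 6.14% against 18.4% from 4 to 8 kb.

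**Figure D3:**
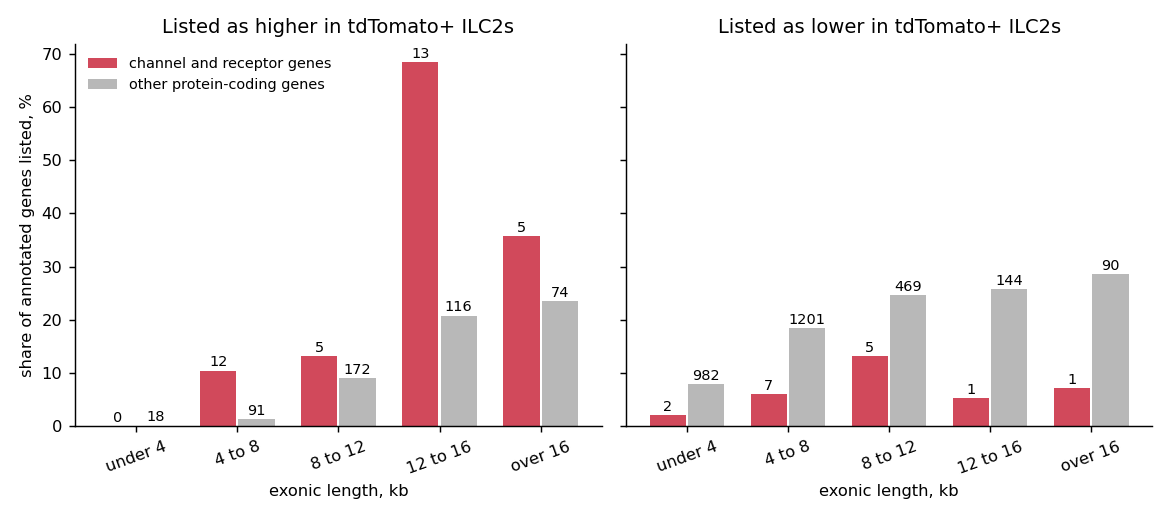
Share (%) of annotated channel and receptor genes and of other protein-coding genes that the tables list as higher (left) or lower (right), by exonic length in kb, with the number of listed genes over each bar. The share listed as higher is 68.4% for channel and receptor genes of 12 to 16 kb, against 20.8% of the other genes of that length.

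The introns gave a wider difference. From the first to the last annotated base, the higher members spanned a median of 189.6 kb (45.3 kb in *Kcnk9* to 922 kb in *Grm7*) and the lower members 61.5 kb (1.90 kb in *Kcna3*, which has a single exon, to 394 kb in *Itpr2*). More than 100 kb was spanned by 29 of 35 higher members and by *Itpr1*, *Itpr2*, *Stim1* and *Stim2* among the 16 lower members. Of the other listed genes, 295 of 496 higher and 362 of 2889 lower genes spanned as much. The authors counted reads on annotated genes, and how reads in introns entered these counts is not stated.

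**Figure D4:**
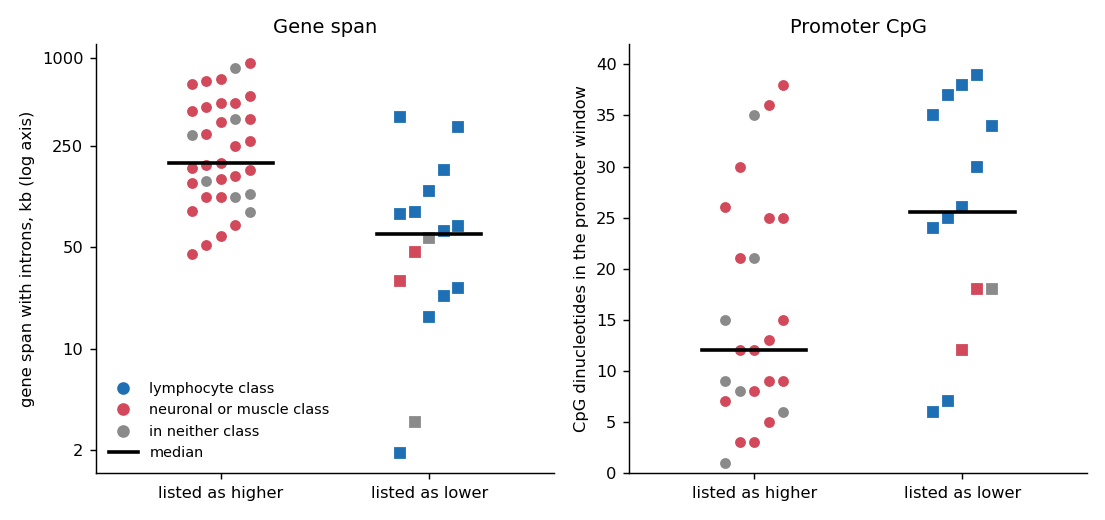
Left, gene span including introns (kb, log axis). Right, number of CpG dinucleotides in the promoter window of 300 bases, for members with a RefSeq promoter, each point 1 gene and black bars medians. Members listed as higher span a median of 189.6 kb against 61.5 kb, and hold a median of 12 CpG against 25.5 in members listed as lower.

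Promoters were read for 25 of the 35 higher and 14 of the 16 lower members from RefSeq (GRCm38.p6), as the 250 bases before and 50 after each annotated start. CpG dinucleotides are frequent at the promoters of genes that most cells use and rare at many tissue-restricted ones. In the window with most CpG of each gene, the lower members had a median of 25.5 CpG (quartiles 18 and 34.8) and the higher members 12 (quartiles 8 and 25). The other listed genes had medians of 25 (lower) and 11 (higher), while the median was 8 over all 27025 genes with a promoter. The ranges overlapped. *Scn8a* (38), *Kcnma1* (36) and *Cacnb2* (35) were rich in CpG although listed as higher, and *Kcnn4* (6) and *Trpv2* (7) were poor although listed as lower. The 150 bases before the outermost start are shown for a pair of lymphocyte genes and a pair of sodium channel genes that differ in this respect, 5′ to 3′ on the strand of the gene, with each CpG in capitals. They lie at chr3:107036012-107036161 (*Kcna3*, plus strand), chr7:102267669-102267818 (*Stim1*, plus strand), chr2:65620619-65620768 (*Scn2a*, plus strand) and chr2:66634963-66635112 (*Scn9a*, minus strand).
Kcna3: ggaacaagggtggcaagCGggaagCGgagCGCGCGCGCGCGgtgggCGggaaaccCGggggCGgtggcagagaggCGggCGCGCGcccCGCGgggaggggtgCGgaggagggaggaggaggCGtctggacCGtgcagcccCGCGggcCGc
Stim1: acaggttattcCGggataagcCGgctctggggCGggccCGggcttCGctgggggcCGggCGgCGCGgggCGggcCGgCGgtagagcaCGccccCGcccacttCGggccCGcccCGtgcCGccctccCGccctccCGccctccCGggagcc
Scn2a: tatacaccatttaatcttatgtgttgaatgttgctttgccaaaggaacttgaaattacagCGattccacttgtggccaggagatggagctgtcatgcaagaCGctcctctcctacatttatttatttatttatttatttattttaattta
Scn9a: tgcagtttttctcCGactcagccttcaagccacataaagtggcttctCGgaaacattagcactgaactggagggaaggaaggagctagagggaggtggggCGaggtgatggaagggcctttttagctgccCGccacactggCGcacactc
These stretches hold 23 CpG for *Kcna3* and 21 for *Stim1*, against 2 for *Scn2a* and 5 for *Scn9a*. *Scn2a* has 2 annotated starts, and its other promoter window holds 9 CpG against 3 at the outermost start. The other 3 genes have 1 window each.

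GATA-3 is the lineage factor of ILC2s, so the letters of its motif were searched on both strands of the same windows (GATA with A or T before it and A or G after it). They occurred in at least 1 window of 5 of 25 higher members (20%) and 3 of 14 lower members (21.4%), against 33% of all genes with a promoter, 34.5% of the other genes listed as higher and 19.9% of those listed as lower. A match is a match of letters and not a shown binding site.

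Other genes of calcium signaling were taken from a list of 40. Of these, 21 were listed as lower, 0 as higher and 19 were not listed, beside 13.2% of all protein-coding genes listed as lower and 2.31% as higher. The list was drawn up with earlier results of these data known. Among those listed as lower were the NFAT factors *Nfatc1*, *Nfatc2* and *Nfatc3* (7.91, 11.3 and 13.0 CPM per kb), the calcineurin subunits *Ppp3ca*, *Ppp3cb* and *Ppp3r1* (11.6, 11.03 and 17.3), *Plcg1*, the phospholipase that makes inositol trisphosphate (14.5), *Itpkb*, the kinase that uses it up (13.0), and the store pumps *Atp2a2* and *Atp2a3* (28.0 and 33.5). The calmodulin genes *Calm2* and *Calm3* had 74.8 and 61.3 CPM per kb. *Saraf*, an inhibitor of store-operated entry, was listed as lower with 29.8. Over the 21 genes the median was 17.3 CPM per kb, against 11.8 for the channel members listed as lower.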

How the data were processed

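RNA-seq of tdTomato- and tdTomato+ lung ILC2s (4 libraries each) was used as 2 deposited tables of genes lower or higher in tdTomato+ ILC2s. The ATAC-seq libraries are not analysed here. The authors used STAR for alignment to the GRCm39 genome, featureCounts for gene counts and edgeR for their comparison. Versions and library scaling are not given in the sources used here. The columns of the authors' comparison (fold change, likelihood ratio, p-value and FDR) were not used. The deposited value used is the authors' average log2 CPM over both populations, and it was at least 5 for every listed gene, a limit read from the values. No column holds a single library, so depth, counting error and replicate spread are unknown, and the planned limma test, its alternatives and any paired fit were not run.

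Average CPM was divided by exonic length (union of exons, GENCODE M21 on GRCm38, whereas the study's methods name GRCm39 for RNA-seq and the labels mm10). Identifiers matched for 3436 of 3439 genes. Summaries are medians without tests, computed with Python 3.11.15 and pandas 2.3.3 and tested on simulated data. Members, classes and lists were chosen with earlier results of these data known. Named are all listed lymphocyte channels, all members of the smaller table, the 10 highest of the larger table, the longest and shortest proteins, and further members by family, except a few genes that are not reported here. Alternatives were other lengths, stricter levels, other class limits and subunits.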

Additional observations from a re-analysis of the deposited data

How the results depend on the processing

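Of 27 alternatives, 22 moved a count or a ratio of medians by at most 1.5 times, 5 moved it further and 0 reversed it. Only ratios could be called reversed. Some of the 22 could not move, such as the 35 higher members without *Grina* and *Trpc4ap*, which are both listed as lower. With an average log2 CPM over 6 instead of 5, the members listed as higher fell from 35 to 4 and the neuronal or muscle channels among them from 28 to 3 (*Grik2*, *Grin2b* and *Kcnma1*), since 31 of the 35 lie between 5 and 6, while 12 of the 16 lower members stayed. Without *Trpm7* and the Itpr and Stim genes, which most tissues express, the lymphocyte channels listed as lower were 6 instead of 12. The ratio of the median level of lower to that of higher members was 2.61 per kb of exon and 1.58 with no length scale. The ratio of the median length of higher to that of lower members was 1.70 in exons and 3.08 in gene span, an alternative chosen after seeing the data, as was the restriction of members for both ratios. No paired analysis was possible because no column of the deposited tables belongs to a single library, and for the same reason no replicate could be left out.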
